A study of Mus musculus with 6 samples.

Results

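The genes described here encode the nuclear lamina and the LINC complexes of mouse male germ cells. They are the SUN-domain genes Sun1, Sun2, Sun3, Sun5 and Spag4 (also called Sun4), the nesprin genes Syne1 and Syne2, and the lamin genes Lmna, Lmnb1 and Lmnb2. They were taken by symbol, with 1 transcript cluster per gene, the one with the highest mean over the 6 arrays. All 10 were found among the 19938 genes with a cluster of their own, and all 10 were among the 17925 genes tested, which reached a log2 intensity of 6 on at least 1 array. No member fell below that level on any array.

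Total RNA of purified cells was measured on Affymetrix MoGene arrays, which give 1 intensity per transcript cluster. All mice had a C57BL/6 background and were either wild type (WT) or carried a knockout of Rnf8 (RNF8-KO in the labels, KO here), a ubiquitin ligase gene acting at DNA damage sites and on the meiotic sex chromosomes. The 4 groups were WT pachytene spermatocytes (2 arrays), KO pachytene spermatocytes (2 arrays), WT round spermatids (1 array) and KO round spermatids (1 array). Cells of 3 to 4 males were separated by gravity sedimentation through albumin, and the labels give neither age nor the kind of Rnf8 allele. Whether 2 arrays of a group stand for different males is not stated, so the p-values reflect spread among these arrays alone, which may be technical. Further round spermatid arrays implied by the numbering of the titles were not analysed here.

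SUN proteins cross the inner nuclear membrane and bind, in the space between the membranes, the KASH domains of nesprins and related proteins of the outer membrane. Together they form the LINC complex, which ties the nucleus to microtubules and actin. In meiotic prophase SUN1 holds telomeres at the envelope so that chromosomes can pair. In spermatids SUN3 and SPAG4 sit with nesprins where the manchette, a sheath of microtubules, shapes the nucleus, and SUN5 anchors the tail to the head. Lamins form the meshwork under the inner membrane. Germ cells also make short lamins from the same genes, lamin C2 from Lmna and lamin B3 from Lmnb2, which the single cluster of each gene on this array does not separate.

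Promoter windows are shown for the 3 genes that rose in round spermatids, Spag4, Sun5 and Lmnb2, because these carry the main change. Sequences are from RefSeq on GRCm38.p6 and run from 250 bases before to 50 after an annotated transcript start. Of the 10 members, 9 had at least 1 window in that table, 15 windows in all. Capitals mark matches, on either strand, to any of 6 motifs: the full cAMP response element TGACGTCA, its core TGACG, the RFX factor core GTTGCC, the TATA box TATAAA, the CCAAT box CCAAT and the GC box GGGCGG. The full cAMP response element contains the core TGACG on both strands.
Spag4, chr2:156064963-156065262, + strand: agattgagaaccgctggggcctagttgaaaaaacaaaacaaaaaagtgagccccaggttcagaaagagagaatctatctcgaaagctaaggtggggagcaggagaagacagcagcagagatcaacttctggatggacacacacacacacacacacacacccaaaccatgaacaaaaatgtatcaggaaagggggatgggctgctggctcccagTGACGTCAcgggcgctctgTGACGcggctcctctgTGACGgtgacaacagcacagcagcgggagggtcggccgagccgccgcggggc
Sun5, chr2:153871035-153871334, - strand: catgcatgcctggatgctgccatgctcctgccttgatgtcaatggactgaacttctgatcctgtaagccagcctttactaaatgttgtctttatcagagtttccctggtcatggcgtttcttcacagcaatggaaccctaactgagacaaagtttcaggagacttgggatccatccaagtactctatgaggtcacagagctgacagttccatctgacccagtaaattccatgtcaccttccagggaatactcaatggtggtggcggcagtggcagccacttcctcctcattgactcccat
Lmnb2, start 1, chr10:80918196-80918495, - strand: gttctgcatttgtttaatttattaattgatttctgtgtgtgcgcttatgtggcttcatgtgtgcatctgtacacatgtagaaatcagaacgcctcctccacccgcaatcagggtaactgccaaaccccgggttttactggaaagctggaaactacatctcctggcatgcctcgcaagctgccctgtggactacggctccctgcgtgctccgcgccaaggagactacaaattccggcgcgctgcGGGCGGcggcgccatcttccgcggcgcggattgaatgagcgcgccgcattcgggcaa
Lmnb2, start 2, chr10:80906363-80906662, - strand: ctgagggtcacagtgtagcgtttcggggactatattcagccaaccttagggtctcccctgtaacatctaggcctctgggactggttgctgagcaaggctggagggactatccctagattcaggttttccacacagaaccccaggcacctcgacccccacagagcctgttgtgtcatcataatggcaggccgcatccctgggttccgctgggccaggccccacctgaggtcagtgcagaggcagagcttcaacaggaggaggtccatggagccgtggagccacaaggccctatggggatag

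The Spag4 window held the full cAMP response element with its first base at -37 from the start, and 2 further TGACG cores at -18 and -2. No other member window held the full element, which is present in 1.8% of 32817 windows of the same length. The core TGACG was in 2 of the 15 member windows and in 20.8% of all windows. Besides Spag4, the first window of Sun1, which did not pass between cell types, held it at -161 and -63. The Sun5 window and the second Lmnb2 window held none of the 6 motifs. The first Lmnb2 window held 1 GC box, a motif of 6 of the 15 member windows and of 35.6% of all windows. The core GTTGCC was in none of the 15 member windows and in 12.5% of all windows. TATAAA was in 2 of the 15 (13.6% of all windows) and CCAAT in 5 of the 15 (37.4% of all windows). These matches describe letters in a window and no binding was measured.

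Array medians lay between intensities of 197.3 and 217.7. The Rnf8 cluster, which also lists Gm28043, had log2 intensities of 8.51 and 8.86 on the WT and 7.86 and 8.05 on the KO pachytene arrays, with 7.78 and 7.50 for WT and KO round spermatids. Both KO pachytene arrays thus lay below both WT arrays, but whether the probes lie in the deleted part is not stated, so this does not check the labels by itself. The KO pachytene arrays differed from each other more than the WT pair did, with an SD of the log2 difference of 0.42 against 0.23 over all clusters. The summed intensity of 10 round spermatid markers ran from 40178 to 49538.4 across pachytene arrays, lowest in KO replicate 2 and highest in KO replicate 1, and was 67179.3 (WT) and 65339 (KO) for round spermatids. The 10 pachytene markers summed to 48110.8 to 53320.9 across pachytene arrays, against 39060.8 (WT) and 38215.1 (KO) for round spermatids. In the additive fit described below, 6 of 10 pachytene markers were lower and 1, Pgk2, was higher in round spermatids. Of the 10 round spermatid markers, 7 were higher and 0 lower. The pachytene marker Ldhc was at 13.36 to 13.48 across pachytene arrays and at 13.43 (WT) and 13.34 (KO) in round spermatids. Each fraction gave signal for the marker list of the other, but these sums include genes with similar signal in both. The part of either cell type in the other fraction was not tested. The submitters state an enrichment of over 95% for both fractions from DAPI staining.

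Between the cell types, 3 members rose and 1 fell in round spermatids. Spag4 rose 2.62-fold, Lmnb2 2.42-fold and Sun5 2.05-fold, while Sun2 fell by 0.58 on the log2 scale, a 1.5-fold change. The other 6 members did not pass. These calls come from an additive limma fit of cell type and genotype over all tested genes, at a Benjamini-Hochberg adjusted p below 0.05. In that fit 34.9% of all tested genes passed, 17.8% as higher and 17.1% as lower. Beside those shares stand 3 higher (30.0%) and 1 lower (10%) of 10 members. The members were chosen with earlier results of these data known, so these shares are a description and no independent test. The median difference was 0.17 over the 10 members and -0.06 over all tested genes. Both round spermatid arrays lay above all 4 pachytene arrays for 4 members, as for 24.1% of all tested genes, and below them for 2, as for 26.4%. In bulk RNA of a fraction, fewer cells of a type and less RNA per cell cannot be told apart.

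**Figure D1:**
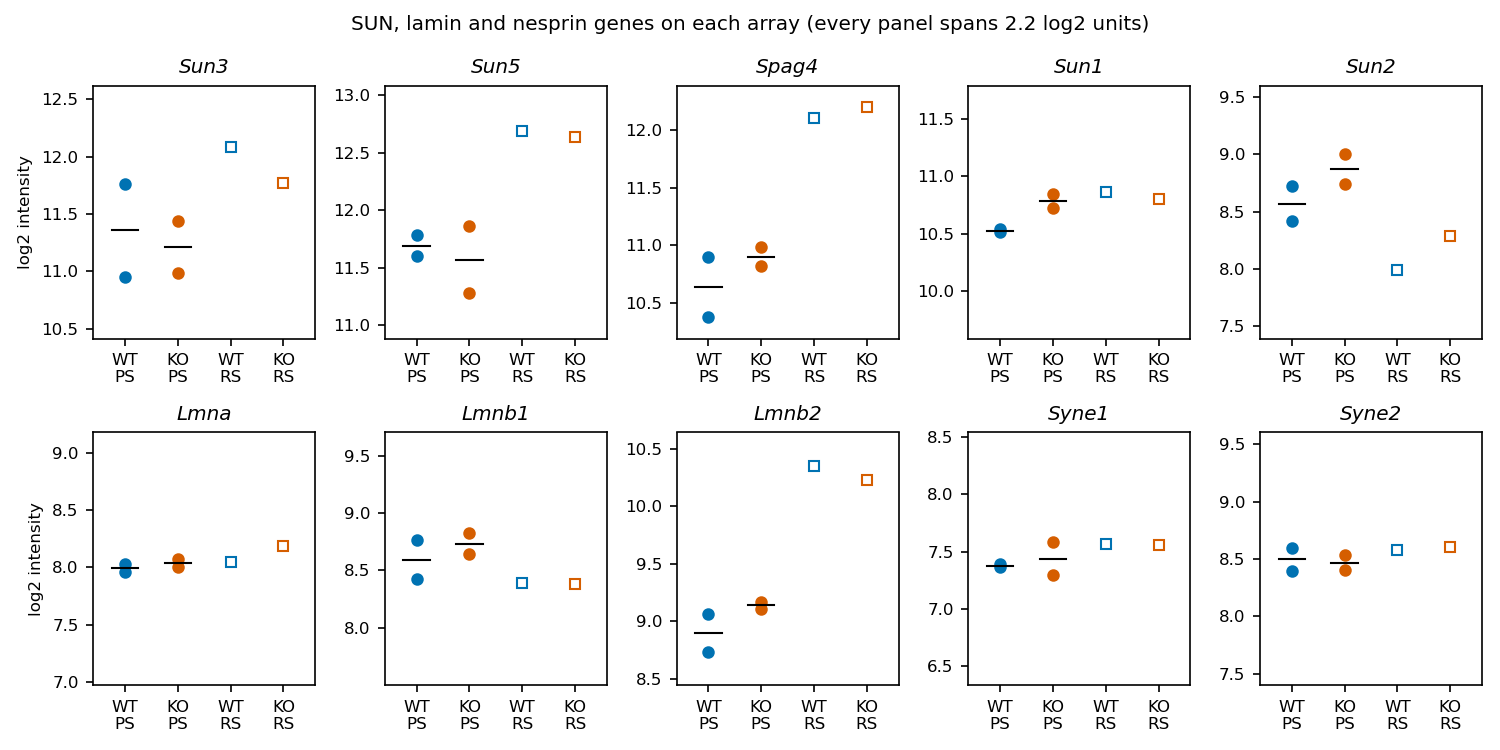
Log2 intensity (y axis) of each of the 10 genes on each array, by group on the x axis (WT blue, KO orange; filled circles, pachytene spermatocytes, PS, with a black line at the mean of 2 arrays; open squares, round spermatids, RS, 1 array each). Spag4, Sun5 and Lmnb2 have gaps of 0.78 to 1.13 between the lowest round spermatid and the highest pachytene array, while Lmna stays between 7.96 and 8.19.

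Of the testis SUN genes, Spag4 and Sun5 rose and Sun3 did not pass. Spag4, needed for shaping of the sperm head, had log2 intensities of 10.90 and 10.37 on the WT and 10.98 and 10.82 on the KO pachytene arrays, then 12.11 on the WT and 12.20 on the KO round spermatid array. The lowest spermatid value lay 1.13 above the highest pachytene value. The difference was 1.39 (SE 0.16, 95% interval 1.02 to 1.76, 2 against 4 arrays), with a limma adjusted p of 0.00048. Of all members it changed most in this comparison, at rank 920 of 17925 by size.

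Sun5, the anchor of the head-to-tail junction, was at 11.60 and 11.78 in WT and 11.86 and 11.27 in KO pachytene spermatocytes. Round spermatids had 12.69 (WT) and 12.64 (KO), so the groups did not overlap and the gap was 0.78. The difference was 1.03 (SE 0.17, 95% interval 0.64 to 1.42, limma adjusted p = 0.00213). Its lowest array was KO pachytene replicate 2, which also had the lowest summed spermatid markers. Without that array the difference was 0.90 (limma adjusted p = 4.72e-04).

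Sun3, which pairs with nesprins along the manchette, spread most among the pachytene arrays. It was at 10.95 and 11.76 in WT and 11.44 and 10.99 in KO pachytene spermatocytes, and at 12.08 and 11.77 in WT and KO round spermatids. The pachytene range of 0.82 was wider than that of 95.4% of tested genes, and the lowest spermatid array cleared the highest pachytene array by 0.0011. The difference of 0.64 (SE 0.23, 95% interval 0.10 to 1.17) did not pass (limma adjusted p = 0.0673). It passed with a trended and robust prior (limma adjusted p = 0.0427), without WT pachytene replicate 2 (0.80) and without KO pachytene replicate 1 (0.75). Those arrays held its highest pachytene values, so leaving either out raises the difference. It did not pass without WT pachytene replicate 1 (0.45) or KO pachytene replicate 2 (0.55). Nor did it pass with replicate numbers as a block (0.55) or after a second quantile normalization (limma adjusted p = 0.111).

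Of the widely expressed SUN genes, Sun1 did not pass and Sun2 fell. Sun1, the main SUN protein at meiotic telomeres, lay at 10.55 and 10.51 in WT and 10.84 and 10.73 in KO pachytene spermatocytes. Round spermatids had 10.86 (WT) and 10.81 (KO), inside the range of the pachytene arrays or within 0.02 of it. The top of that range came from the KO arrays, and the WT spermatid array lay above both WT pachytene arrays. The difference of 0.18 (SE 0.12, 95% interval -0.09 to 0.45) did not pass (limma adjusted p = 0.307), which does not show that Sun1 was unchanged. Within genotypes it was 0.33 in WT and 0.02 in KO, each with 1 round spermatid array.

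Sun2, which overlaps in function with Sun1 in many somatic cells, was at 8.72 and 8.42 in WT and 8.74 and 9.0 in KO pachytene spermatocytes. In round spermatids it was at 7.99 in WT and 8.29 in KO, below all 4 pachytene arrays. The fall of -0.58 (SE 0.13, 95% interval -0.89 to -0.27) passed (limma adjusted p = 0.0105). It no longer passed without the WT (adjusted p = 0.130) or the KO round spermatid array (adjusted p = 0.115), at the same size of -0.58. In the same fit 17.1% of all tested genes fell. Markers of Sertoli and Leydig cells moved the same way as Sun2: 4 of 9 Sertoli and 6 of 6 Leydig markers fell, and none rose. Other marker lists did not: 0 of 8 peritubular and vessel markers fell and 0 rose. Of 5 macrophage and blood markers 0 fell and 2 rose, and of 8 spermatogonial markers 0 fell and 1 rose. Summed Sertoli marker intensity was 5514.3 to 7149.8 in pachytene fractions, against 3637.4 and 4258.3 in round spermatids, and summed Leydig marker intensity 4689.1 to 6905.4 against 1044 and 1276.7. Their part in the fall of Sun2 was not tested.

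Among the lamins, Lmnb2 rose, while Lmnb1 and Lmna did not pass. Lmnb2, which encodes lamin B2 and the spermatid lamin B3, was at 9.06 and 8.73 in WT and 9.10 and 9.17 in KO pachytene spermatocytes. Round spermatids had 10.35 (WT) and 10.23 (KO), a gap of 1.06 between the groups. The difference was 1.28 (SE 0.14, 95% interval 0.95 to 1.60), with the smallest adjusted p of the 10 members (limma, 4.06e-04). The cluster does not tell which of the 2 annotated starts printed above, or which lamin, gave the increase.

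Lmnb1, a lamin of most somatic and germ cells, was at 8.42 and 8.76 in WT and 8.82 and 8.64 in KO pachytene spermatocytes, and at 8.39 and 8.38 in round spermatids. Both spermatid arrays lay below every pachytene array, the nearest by 0.03. The difference of -0.28 (SE 0.13, 95% interval -0.59 to 0.03) did not pass (limma adjusted p = 0.157). Lmna, the gene of the A-type lamins and of lamin C2, had the narrowest pachytene range of the members. It was at 7.96 and 8.03 in WT and 8.00 and 8.07 in KO pachytene spermatocytes, and at 8.05 and 8.19 in WT and KO round spermatids. Its pachytene range of 0.11 was wider than that of 4.3% of tested genes. Its difference of 0.10 (SE 0.10, 95% interval -0.13 to 0.34) did not pass (limma adjusted p = 0.505). That interval lies within a 1.5-fold change in either direction. It rests on 1 round spermatid array per genotype and on a cluster that does not separate lamin C2, so it does not show that the gene was unchanged.

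**Figure D2:**
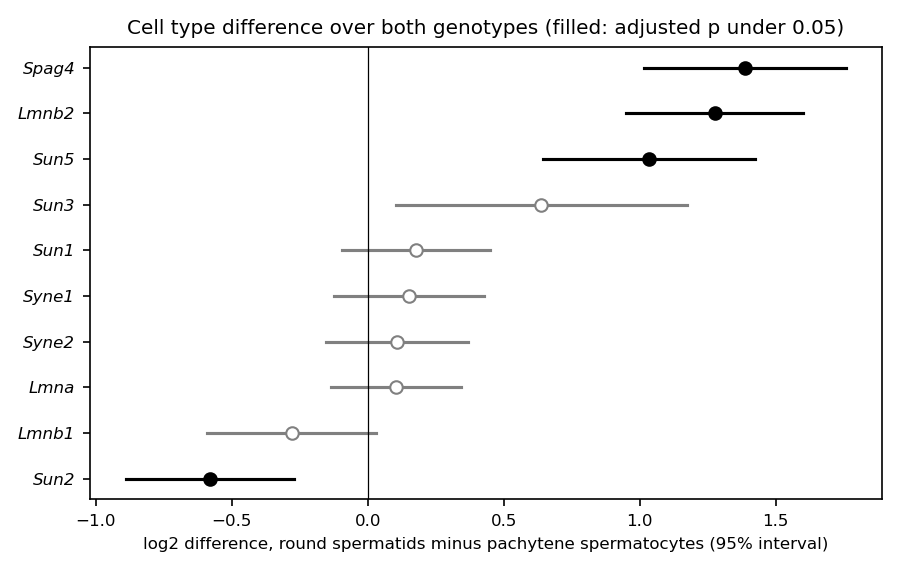
Log2 difference between round spermatids and pachytene spermatocytes over both genotypes (x axis) for each of the 10 genes, with 95% intervals from the additive limma fit (6 arrays); filled points passed an adjusted p of 0.05. Spag4, Lmnb2 and Sun5 lie at 1.03 to 1.39, Sun2 lies at -0.58, and the Sun3 interval runs from 0.10 to 1.17 without the gene passing.

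Neither nesprin gene passed in the cluster used for it. Syne1, which encodes nesprin-1, a large KASH protein binding actin and microtubule motors, ranged from 7.29 to 7.58 in pachytene spermatocytes, with 7.57 (WT) and 7.56 (KO) in round spermatids. Its difference was 0.15 (SE 0.12, 95% interval -0.12 to 0.43, limma adjusted p = 0.390). Syne2, which encodes nesprin-2, ranged from 8.40 to 8.60 in pachytene spermatocytes, with 8.58 (WT) and 8.60 (KO) in round spermatids. Its difference was 0.11 (SE 0.11, 95% interval -0.15 to 0.37, limma adjusted p = 0.537).

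Both nesprin genes are long and have more than 1 cluster. The estimates of the Syne2 clusters differed in sign, but none passed and no difference between clusters was tested. Some of these clusters had low signal. Across the 6 arrays, Syne2 cluster 10396606 lay at percentiles 27.7 to 36.6 of all clusters and 10396608 at 35.5 to 43.9. Syne1 cluster 10361381, used above, lay at 43.5 to 48.9. Cluster 10396511, the one used above, had 8.58 and 8.60 in round spermatids inside or within 0.01 of its pachytene range. Cluster 10396485 was at 7.49 and 7.41 in WT and 7.46 and 7.53 in KO pachytene spermatocytes and lay below that range in round spermatids, at 7.12 in WT and 7.25 in KO. Cluster 10396606 was at 6.81, 6.58, 6.90 and 6.72 there, against 6.36 and 6.47 in round spermatids. When each cluster was tested on its own among 19585 clusters, their differences were -0.29 (SE 0.10, limma adjusted p = 0.0679) and -0.34 (SE 0.12, limma adjusted p = 0.0612), neither of which passed. Cluster 10396608 was at -0.11 (SE 0.13, limma adjusted p = 0.560), and the second Syne1 cluster, 10361509, at 0.03 (SE 0.11, limma adjusted p = 0.878). The table gives no exon for a cluster, so which isoforms each one reads is not known here, and the mean over the 4 Syne2 clusters gave -0.16 in place of 0.11.

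**Figure D3:**
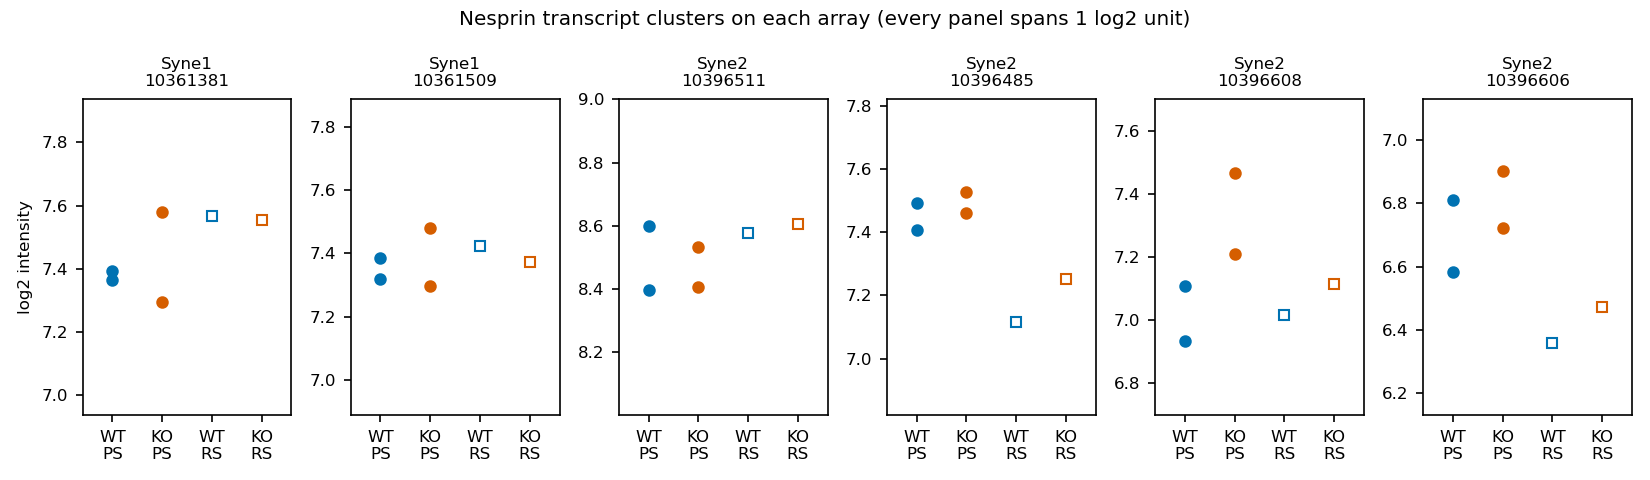
Log2 intensity (y axis) of the 2 Syne1 and 4 Syne2 clusters on each array, by group on the x axis (WT blue, KO orange; filled circles, pachytene arrays; open squares, round spermatid arrays). Syne2 clusters 10396485 and 10396606 lie lower on both round spermatid arrays than on any pachytene array, while cluster 10396511 does not.

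Spag4, Lmnb2 and Sun5 also passed within each genotype. In a limma fit with 4 groups, they passed in WT, where 20% of tested genes passed, 11.5% as higher and 8.45% as lower. They passed in KO, where 15.5% passed, 8.36% as higher and 7.18% as lower. Spag4 rose by 1.47 (SE 0.25) in WT and 1.30 (SE 0.25) in KO, Lmnb2 by 1.46 (SE 0.21) and 1.09 (SE 0.21), and Sun5 by 1.00 (SE 0.26) and 1.07 (SE 0.26). Sun2 was at -0.58 in both without passing (adjusted p = 0.115 in WT and 0.130 in KO). Each estimate rests on 1 round spermatid array, assumed to vary like the pachytene pairs. Sun5 no longer passed in WT without WT pachytene replicate 1 (adjusted p = 0.167) or 2 (adjusted p = 0.100), nor in KO without either WT pachytene array (adjusted p = 0.0623 for each).

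The partners of these proteins are given by 4 lists of genes, chosen for their role with earlier results of these data known. Differences come from the additive fit. In that fit 17.8% of all tested genes rose and 17.1% fell, and the counts of every list stand beside those shares. Because of how the lists were chosen, these counts are descriptions and no independent test. Of 8 tested genes for KASH proteins and the meiotic telomere attachment, 4 fell and 0 rose, with a median difference of -0.62 against -0.06 over all tested genes. Cdk2, a kinase found at meiotic telomeres, fell by 2.06 (SE 0.10). Majin, Terb2 and Terb1, which together join telomeres to the inner membrane, fell by 1.24, 1.24 and 0.99. Kash5, the KASH protein that couples SUN1 to dynein in meiosis, was at -0.21 (SE 0.11, limma adjusted p = 0.183) and Syne4 at -0.25 (limma adjusted p = 0.216), neither of which passed. Kash5 ranged from 10.62 to 10.80 in pachytene spermatocytes, with 10.45 (WT) and 10.55 (KO) in round spermatids. Terb2 ranged from 8.45 in KO replicate 2 to 9.50 in KO replicate 1 among the pachytene arrays. The count of falls in this list was smaller without the WT or the KO round spermatid array.

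The inner membrane partners of lamins moved in both directions: of 17 tested, 5 rose and 8 fell, with a median of -0.23. Nemp2 rose by 1.68 (SE 0.23), Nrm, the gene of nurim, by 1.48, X-linked Emd, the gene of emerin, by 1.37, and Banf2, a relative of the chromatin-bridging factor Banf1, by 1.32. Lbr, the lamin B receptor that holds heterochromatin at the envelope, fell by 1.60 (SE 0.12) and Nemp1 by 1.23. Nemp1 and Nemp2 therefore changed in opposite directions, with Nemp1 from 11.59 to 12.01 before and 10.61 and 10.48 in round spermatids, and Nemp2 from 7.82 to 8.68 and then 10.08 and 9.71. Without the WT round spermatid array 4 rose and 3 fell, and without the KO round spermatid array 5 rose and 3 fell.

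Of 5 genes for the processing of the lamin tail, 3 fell and 0 rose, with a median of -0.45. They were Rce1, a protease of farnesylated proteins, at -0.82 (SE 0.11), the methyltransferase gene Icmt at -0.74 and Fnta, a subunit of farnesyltransferase, at -0.45. The other subunit gene, Fntb, was at 0.34 (SE 0.12, limma adjusted p = 0.0655), and Zmpste24, the protease that matures lamin A, at -0.04 (limma adjusted p = 0.884). The count of falls was 1 without the WT and 2 without the KO round spermatid array.

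Of 14 genes for shaping of the spermatid nucleus and anchoring of the head, 6 rose and 1 fell, with a median of 0.05. Clip1, a microtubule tip protein of the manchette, rose by 1.51 (SE 0.18), Pmfbp1, a partner of SUN5 in the head-to-tail junction, by 1.23, Fam209 by 1.17, Spata46, a spermatid nuclear envelope protein, by 1.097 and the manchette linker gene Hook1 by 0.55. Cntrob, the gene of centrobin, fell by 0.77 (SE 0.11). The other 7 genes did not pass. Without the WT or the KO round spermatid array 4 rose, and without KO pachytene replicate 2, the array with the lowest spermatid markers, 5 rose.

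**Figure D4:**
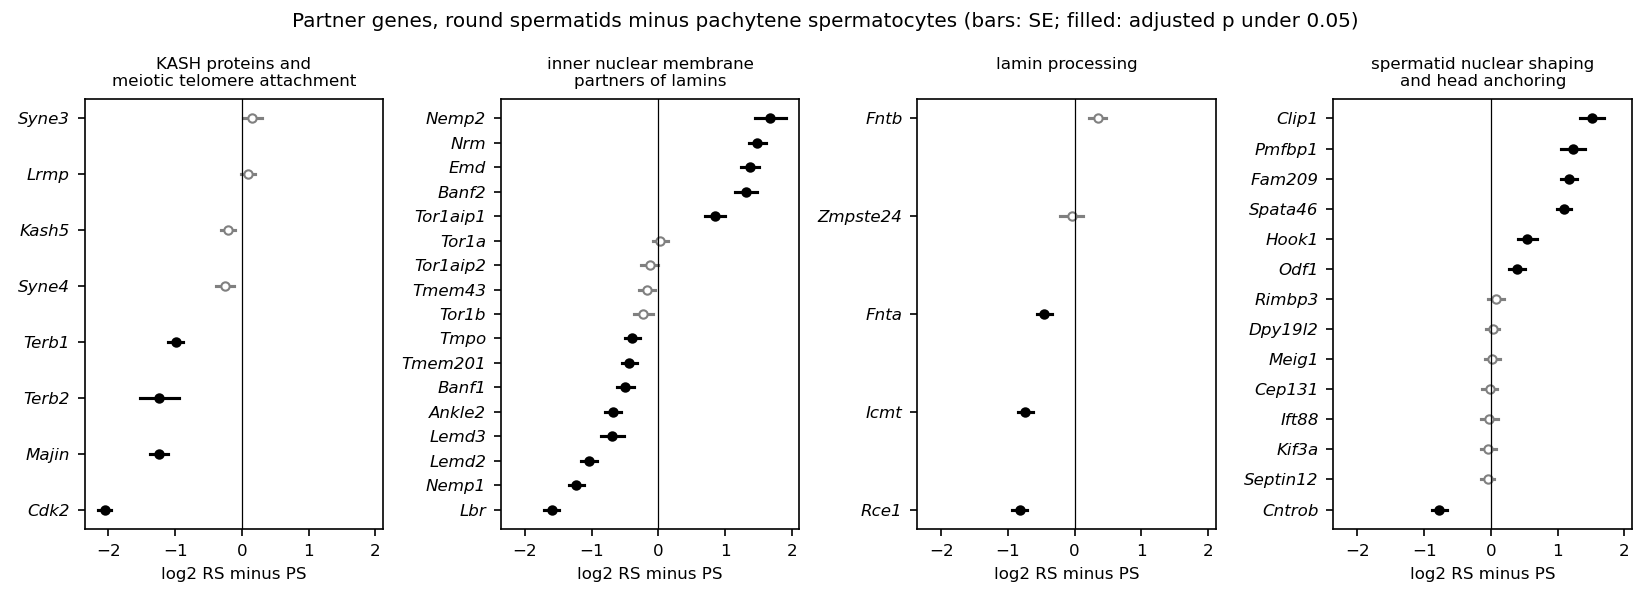
Log2 difference between round spermatids and pachytene spermatocytes (x axis) for the tested genes of each of the 4 partner lists, with SE bars from the additive limma fit; filled points passed an adjusted p of 0.05. All 4 genes that passed among the telomere attachment genes are lower in round spermatids, 6 of the 7 that passed in the shaping list are higher, and the inner membrane list has 5 higher and 8 lower. Of all tested genes 17.8% passed as higher and 17.1% as lower.

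Genes with the array profile nearest to Spag4, the member with the most positive difference, were Ttc39a, Spaca3, Znrf4 and Fam220a, at distances of 0.13, 0.14, 0.15 and 0.19 over the 6 arrays after each gene was centred on its mean. Their cell type differences were 1.33, 1.48, 1.504 and 1.44. Those nearest to Sun2, the member with the most negative difference, were Acsbg1, Ddb1, Khnyn and Calcoco1, at distances of 0.09, 0.16, 0.18 and 0.18 and differences of -0.57, -0.48, -0.47 and -0.65. These are descriptions over 6 arrays that share 2 cell types.

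Between the genotypes no member passed. In pachytene spermatocytes 0 of 17925 genes passed in the limma fit with 4 groups (percent called 0), 430 had an unadjusted p under 0.05, and none of these were members. The members' median difference was 0.10, against 0.03 over all tested genes. Over both cell types 0 genes passed (percent called 0) and 979 had an unadjusted p under 0.05, with Sun2 the only member among them.

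For 3 members, Sun1, Sun2 and Lmnb2, both KO pachytene arrays lay above both WT arrays, as for 14.9% of all tested genes, and for none did both lie below, as for 10.2%. Sun2 was 0.30 higher in KO pachytene spermatocytes (8.57 ± 0.22 in WT and 8.87 ± 0.18 in KO, SD, n = 2 each; 95% interval of the difference -0.12 to 0.72) and 0.30 higher on the KO round spermatid array. Over both cell types its difference was 0.30 (SE 0.13, limma unadjusted p = 0.0435, adjusted p = 0.892), and 3 of 3 KO arrays exceeded every WT array of their cell type. The median over all tested genes in this comparison was 0.04, and the share of them with this ordering of arrays was not counted. Whole arrays also differed in level. Their median log2 intensity was 7.69 and 7.71 on the WT and 7.63 and 7.77 on the KO pachytene arrays. It was 7.62 on the WT and 7.70 on the KO round spermatid array. Median differences for markers of other cells were 0.15 (Sertoli, 9 genes), 0.16 (peritubular and vessel, 8) and 0.17 (spermatogonia, 8). They were 0.019 for Leydig markers (6) and -0.063 for macrophage and blood markers (5). None of these markers passed. Their part in the Sun2 value was not tested.

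Sun1 averaged 10.53 ± 0.02 (SD, n = 2) for WT pachytene arrays against 10.79 ± 0.08 (SD, n = 2) for KO, which is 0.26 higher (SE 0.15, 95% interval -0.09 to 0.60). In round spermatids the KO array lay 0.06 below the WT array. Lmnb2 averaged 8.90 ± 0.24 (SD, n = 2) for WT against 9.14 ± 0.05 (SD, n = 2) for KO, which is 0.24 higher (95% interval -0.16 to 0.64), and 0.12 lower in KO round spermatids. Whether the cell type difference depended on genotype was tested by the interaction, which was -0.31 (SE 0.25) for Sun1 and -0.36 (SE 0.29) for Lmnb2. No gene passed for the interaction (percent called 0; limma, 130 genes at an unadjusted p under 0.05, none of them members).

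The other 7 members had pachytene differences between -0.14 for Sun3 and 0.27 for Spag4. The 95% interval of Sun3 ran from -0.81 to 0.52 and that of Spag4 from -0.21 to 0.74. In simulated data for this comparison, limma called 74% of genes changed by 1 on the log2 scale and 96% of those changed by 2. The simulation gave each gene independent normal noise with the same SD on all arrays. The real pachytene pairs differed in spread, with an SD of the log2 difference of 0.42 in KO and 0.23 in WT. These rates therefore need not hold for the real arrays. On the round spermatid arrays 69 genes differed at least 2-fold between KO and WT, 0.385% of those tested (0.0335% higher and 0.351% lower in KO), and none was a member. The members' differences there ran from -0.32 for Sun3 to 0.30 for Sun2, with no replicate to judge them by.

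**Figure D5:**
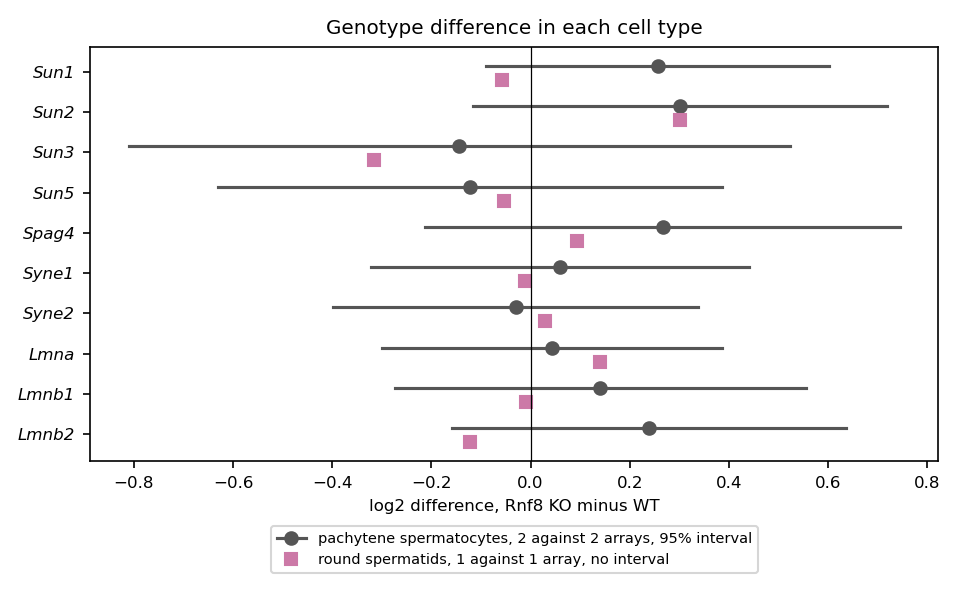
Log2 difference between Rnf8 KO and WT (x axis) for each of the 10 genes, in pachytene spermatocytes (grey circles, 2 against 2 arrays, 95% interval from limma) and in round spermatids (pink squares, 1 against 1 array, no interval). Every pachytene interval crosses 0, and Sun2 is at 0.30 in both cell types.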

How the data were processed

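Per the submitters' notes, the authors obtained the deposited intensity values from Affymetrix Expression Console 1.1 with RMA. They are linear, and neither the RMA options nor a genome build are stated. They were turned into log2 here. Of 35556 clusters, 21789 had 1 gene symbol in the platform annotation and were used (1621 had several, 12146 were not listed). Each gene kept its cluster of highest mean, and was tested if any array reached log2 6.

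limma 3.58.1 in R 4.3.3 (lmFit, eBayes, Benjamini-Hochberg) gave an additive fit of cell type and genotype, with 3 residual degrees of freedom, and a fit with 4 groups, with 2. KO against WT in round spermatids has 1 array each, so it is given by a 2-fold rule, with the fit of 4 groups, which takes the spread from the pachytene arrays, as an alternative. An exact permutation test of 2 against 4 arrays that doubles the smaller tail, as used here, cannot go below a two-sided p of 0.133, which 6 members reached. In simulated data of 17925 genes for the cell type comparison, 86% of genes changed by 1 on the log2 scale and 99% of those changed by 2 were called. The simulated noise was independent and normal with the same SD for a gene on all arrays, so these rates need not hold for the real arrays.

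The members and lists were chosen with earlier results of these data known. Named list genes are up to 6 per list with the largest cell type difference. No single-gene cluster was found for Spdya, nor for the markers Rhox5, Insl3, Lhcgr, Hbb-bs and Hba-a1, which were not analysed here. Same-numbered pachytene arrays did not deviate together (correlation -0.23 across genes), so the numbers were not taken as pairs. The number of arrays limits the precision, and the labels give no batch.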

Additional observations from a re-analysis of the deposited data

How the results depend on the processing

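Counts of genes passing moved with the array left out: from 2786 (without the WT round spermatid array) to 8849 (without KO pachytene replicate 1) between cell types over both genotypes, 1404 to 5511 in WT, 1646 to 3883 in KO, 0 to 2 for KO against WT in pachytene spermatocytes, and 0 to 21 over both cell types. When replicate numbers entered the model as a block, 43 genes passed for KO against WT in pachytene spermatocytes and 2 over both cell types, and the block changed no call of a member. Since the numbers did not pair the arrays, these counts are given for completeness. A trended and robust prior gave 2 over both cell types, and the limma fit with 4 groups gave 0 in round spermatids, where 69 passed the 2-fold rule.

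Reversals were of members that passed in neither setting. The mean over the Syne2 clusters gave -0.16 over both genotypes, -0.15 in WT and -0.17 in KO between cell types, 0.11 for KO against WT in pachytene spermatocytes, 0.11 over both cell types and -0.018 for the interaction. Syne2 clusters 10396485, 10396608 and 10396606 taken singly gave -0.29, -0.11 and -0.34 between cell types and 0.074, 0.24 and 0.11 between genotypes. A second quantile normalization gave -0.030 for Syne1 between genotypes and -0.053 for the Sun2 interaction.

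Leaving out 1 array at a time, ranges that crossed 0 between cell types were -0.023 to 0.18 for Syne2 in WT, and -0.025 to 0.26 for Syne1 and -0.038 to 0.080 for Sun1 in KO. For KO against WT in pachytene spermatocytes they were -0.13 to 0.070 (Syne2), -0.031 to 0.31 (Lmnb1), -0.55 to 0.26 (Sun3), -0.42 to 0.17 (Sun5) and -0.084 to 0.20 (Syne1). Over both cell types they were -0.062 to 0.052 (Syne2), -0.022 to 0.17 (Lmnb1), -0.45 to 0.016 (Sun3), -0.011 to 0.24 (Lmnb2), -0.26 to 0.075 (Sun5) and -0.053 to 0.11 (Syne1). For the interaction they were -0.15 to 0.15 (Sun2), -0.58 to 0.24 (Sun3), -0.042 to 0.16 (Syne2), -0.32 to 0.021 (Lmnb1), -0.22 to 0.36 (Sun5), -0.43 to 0.091 (Spag4) and -0.21 to 0.074 (Syne1). The cause was not tested. The rises of Spag4, Lmnb2 and Sun5 over both genotypes passed without any 1 array. With 1 round spermatid array per genotype, the spread within those groups was not measured.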
